A study of Mus musculus with 69 samples.

Results

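WT–mCherry cells that had shared a gastruloid with p53KO cells for 48 h were compared with WT–mCherry cells that had shared one with other WT cells. The 6 libraries, 3 beside each kind of neighbour, were chosen by their labels, from 69 libraries of the series, and all genes were examined. Both groups came from 1 mES cell clone of the E14tg2A line, a mouse embryonic stem cell line, carrying an H2B–mCherry transgene driven by the EF1α promoter, and both were sorted at 48 h by FACS from untreated aggregates, since the CHIR99021 pulse that activates Wnt signalling starts at that time. Each aggregate was seeded from 150 WT–mCherry cells, to which 150 WT–emiRFP cells were added for WT + WT gastruloids, or 25 p53KO–emiRFP cells for those named WT + p53KO. WT–emiRFP is a sister clone with H2B–emiRFP670 under the CAG promoter, and p53KO–emiRFP is a single daughter clone of it with a homozygous frameshift in Trp53. The genotype of the neighbours, their number and the size of the aggregate therefore differ together between the groups and cannot be told apart, and each line is 1 clone. Cells were aggregated from serum and LIF cultures, the study took its replicates from separate experiments, and sorted cells were not re-tested for purity.

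At 48 h gastruloids stand between the naive and the primed state of pluripotency. The naive state, that of the preimplantation epiblast and of mES cells in LIF, is held by factors such as Nanog, Esrrb, Klf2 and Tfcp2l1. As cells leave it they switch on Pou3f1, Otx2 and Fgf5 while Pou5f1 and Sox2 stay on. Nodal, a TGFβ family ligand that signals with the co-receptor Tdgf1 and through Smad2, acts in this interval and switches on its own inhibitors Lefty1 and Lefty2. The protein p53, encoded by Trp53, activates genes of arrest and death, and cells that lack it are known to eliminate WT cells in mosaics.

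The WT cells beside p53KO neighbours had lower levels of 14 of 22 naive pluripotency genes and 6 of 17 Nodal pathway genes and slightly higher levels of 7 of 19 formative and primed genes, of which 2 others were lower, in the fit that keeps same-numbered libraries together as a block. No core pluripotency gene passed the test, and 3 of 38 p53 target genes were higher. Of 17662 genes with enough counts, 651 were lower and 221 higher beside p53KO cells in that fit (edgeR quasi-likelihood test, adjusted p below 0.05), which is 3.69% and 1.25% of the genes tested and 4.94% together. The changes were small, with a median absolute log2 fold change of 0.15 among called genes, and 38 of the 872 reached 0.5. All 221 higher genes were higher in each of the 3 same-numbered pairs, and 647 of the 651 lower genes were lower in each. Without the block edgeR, which is meant below wherever no tool is named, called 13 genes, which is 0.0736%, and all were lower. None was higher in that fit, where 357 genes were higher and 711 lower at an unadjusted p below 0.05, and DESeq2 without the block called 2 higher and 38 lower genes. Since exact permutation of 3 against 3 libraries gives at least 0.1, single genes were tested in the fit over all genes alone.

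**Figure D1:**
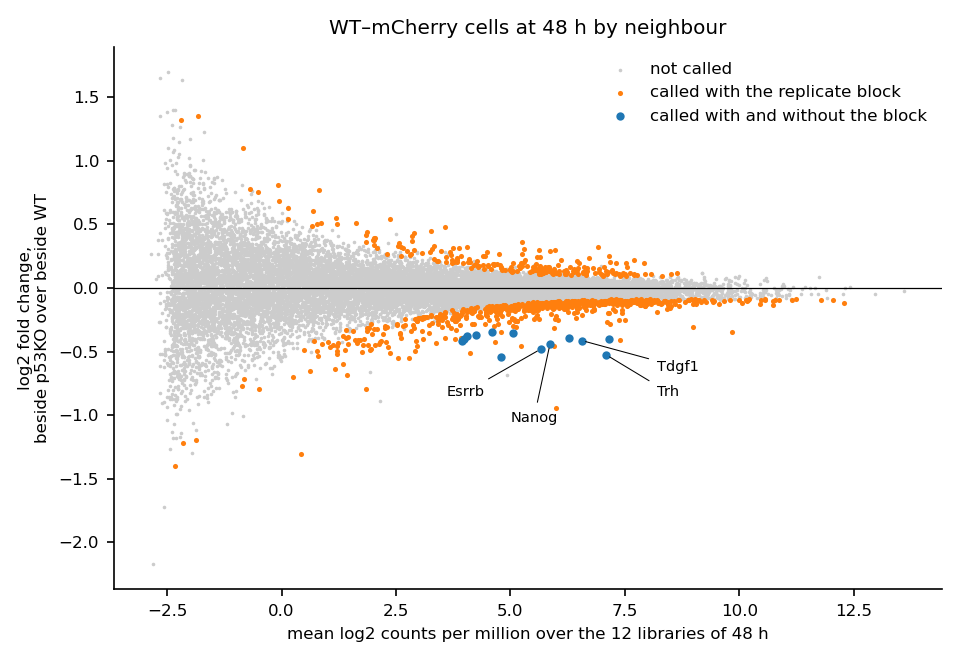
Each point is 1 of the 17662 tested genes, with mean log2 CPM on the x axis and the log2 fold change of WT–mCherry cells beside p53KO over beside WT neighbours at 48 h on the y axis. The 872 genes called with the replicate block are orange, and the 13 called with and without it are blue and all lie below 0.

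The count of calls depended on each library. Leaving out replicates 1, 2 and 3 of the cells beside p53KO gave 471, 325 and 402 calls, and leaving out those beside WT gave 467, 202 and 366. The library totals were 50597778 to 63614531 counts beside p53KO and 49840316 to 60166505 beside WT. Mitochondrial genes held 1.27% to 1.37% and 1.26% to 1.37% of them, and ribosomal protein genes 7.76% to 8.16% and 7.54% to 8.41%.

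The checks of identity were as follows. Trp53 had 16876 ± 357 normalized counts beside p53KO and 16766 ± 590 beside WT (SD, n = 3), against 1812 in the p53KO–emiRFP cells sorted from the same gastruloids. Pou5f1 (33416 and 33010), Epcam (14040 and 14177) and Cdh1 (46756 and 46652), which mark the epiblast, were abundant in both groups. H2bc14, which is high in the emiRFP clone, had 23.8, 28.8 and 22.5 normalized counts beside p53KO and 64.6, 49.2 and 32.5 beside WT. These means are 0.352% and 0.640% of its levels in the p53KO–emiRFP and WT–emiRFP cells of the same gastruloids, against 0.0729% in WT–mCherry mES cells. The H2bc14 difference passed the test (log2 fold change −0.94 ± 0.20 SE, adjusted p = 0.0063), but not without the block (adjusted p = 0.82) and not when replicate 1 of either group was left out. That fit also holds the emiRFP libraries, where H2bc14 had means of 7100 (p53KO–emiRFP) and 7619 (WT–emiRFP) normalized counts. These libraries raise its mean log2 CPM, so this p does not rest on the compared cells alone. With the 6 compared libraries alone, 1 transcript high in the emiRFP clone was called lower. The other transcripts high in that clone, H2bc7 (19.8 ± 1.75 and 32.6 ± 13.3) and H2bc21 (11.5 ± 1.94 and 20.4 ± 2.54), did not pass (adjusted p = 0.17 and 0.24). H2bc7 was at 0.595% and 0.887% of the emiRFP level against 0.318% in mES cells, and H2bc21 at 2.21% and 4.04% against 3.11%.

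The part of emiRFP RNA in other differences was not tested, but its size can be set beside them. WT–emiRFP cells at 48 h had 3125 normalized counts of Nanog, 2460 of Esrrb and 5613 of Tdgf1, below the WT–mCherry cells of the same gastruloids (4470, 3878 and 6103). The p53KO–emiRFP cells had 2306, 2393 and 5077, also below the WT–mCherry cells of their gastruloids (3291, 2785 and 4583) for Nanog and Esrrb and above them for Tdgf1.

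The 13 genes called with and without the block had log2 fold changes of −0.54 to −0.34, and in all of them the 3 libraries beside p53KO lay below the 3 beside WT. Over all tested genes 7.15% were separated in this direction and 4.73% in the other. The 13 were Trh, Nanog, Tdgf1, Cnn2, Esrrb, Mov10, Slc2a3, Manba, Gpa33, AU018091, Dmtn, Ephx2 and Txnip.

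Nanog, the homeodomain factor of the naive network, had 3197, 3384 and 3293 normalized counts beside p53KO cells and 4385, 4494 and 4532 beside WT cells. The groups did not overlap, and the level fell by 26.4% (log2 fold change −0.44 ± 0.03 SE, adjusted p = 1.7e-10, and 0.00041 without the block). Esrrb, an orphan nuclear receptor of the same network, had 2747, 2628 and 2978 against 3958, 3790 and 3886, and fell by 28.3% (−0.48 ± 0.05 SE, adjusted p = 4.9e-08, and 0.0047 without the block). In both genes the separation was wider than the range of either group.

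The promoters of Nanog and Zfp42 are shown because they are the 2 naive genes among the falls whose windows hold a recognition sequence of Oct4, the protein of Pou5f1, alone or with Sox2, in a comparison in which the genes of both factors did not pass the test. The windows run from 250 bases before to 50 bases after the start in RefSeq, build GRCm38.p6. Nanog is on chromosome 6 at 122707489 to 122714633, plus strand, and its window is chr6:122707239-122707538. The capitals in it mark a match to the Sox2–Oct4 composite element on the opposite strand, from base −75 to −62 counted from the start. Zfp42 is on chromosome 8 at 43295063 to 43306980, minus strand, its window is chr8:43306960-43307259 on that strand, and the capitals mark the octamer ATGCAAAT, also on the opposite strand, from base −186 to −179.
Nanog: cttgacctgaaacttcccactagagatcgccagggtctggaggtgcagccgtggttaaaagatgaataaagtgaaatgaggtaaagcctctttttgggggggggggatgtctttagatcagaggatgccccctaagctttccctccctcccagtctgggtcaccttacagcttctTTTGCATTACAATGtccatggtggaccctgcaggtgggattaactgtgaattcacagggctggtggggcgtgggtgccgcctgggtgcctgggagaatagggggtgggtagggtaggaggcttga
Zfp42: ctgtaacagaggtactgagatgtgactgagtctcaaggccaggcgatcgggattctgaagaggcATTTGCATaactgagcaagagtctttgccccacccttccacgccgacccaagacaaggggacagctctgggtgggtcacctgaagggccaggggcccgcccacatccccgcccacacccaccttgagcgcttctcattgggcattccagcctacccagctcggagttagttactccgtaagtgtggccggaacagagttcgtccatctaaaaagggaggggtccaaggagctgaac

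Searched on both strands, the composite element was in 2 of 32851 promoter windows (0.00609%), which are overlapping windows of 2 starts of Nanog, and the octamer in 570 (1.74%). Among the 483 lower genes with a window, 9 held the octamer (1.86%), as did 5 of the 170 higher genes (2.94%), against 1.66% of the 12258 tested genes with a window. Of the 22 naive genes 14 had a window. The element TCAAGGTCA, which Esrrb and Nr5a2 recognise, was in 1 of the lower genes (0.207%) and in 0.326% of the tested genes. These are matches of letters and not shown to be bound sites.

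Among 22 naive pluripotency genes, all tested, 14 fell and 0 rose with the block, against 3.69% of all genes that fell. The median log2 fold change of the list was −0.31, against −0.01 over all genes, and 21 of the 22 values were negative. The 3 libraries beside p53KO lay below those beside WT in 10 of the 22, against 7.15% of all genes. In bulk samples fewer naive cells and less RNA per cell cannot be told apart. Without the block edgeR called 2 members, Nanog and Esrrb, and DESeq2 5. With the block DESeq2 called 9 members and TMM scaling 10, under which Klf2, Klf5, Lifr and Prdm14 did not pass. Leaving out replicates 1, 2 and 3 of every group in the fit left 8, 10 and 12 calls, leaving out the libraries beside p53KO one at a time 10, 8 and 13, and those beside WT 9, 11 and 8.

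Dppa5a, an RNA-binding protein of mES cells and the most abundant of these 14, had 29780, 29444 and 26278 normalized counts beside p53KO and 35422, 38312 and 32087 beside WT (−0.31 ± 0.03 SE, adjusted p = 3.4e-07, and 0.11 without the block). Zfp42, also called Rex1 and used as a marker of the naive state, had 3527, 3235 and 3361 against 4308, 4133 and 4148 (−0.32 ± 0.04 SE, adjusted p = 1.8e-05, and 0.092 without the block). Both were separated between the groups in every library.

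Of the other 10 falls all but Prdm14 and Dppa3 are named here after their values were seen. The nuclear receptor genes Nr5a2 (−0.43 ± 0.06 SE) and Nr0b1 (−0.40 ± 0.07 SE) and the factor Tfcp2l1 (−0.39 ± 0.07 SE) fell, with changes of −25.8% to −23.9%. Tcl1, an activator of Akt kinase, fell by 25.4%. Prdm14, a repressor needed for the naive state and for germ cells, fell from a low level, with 26.2 ± 8.66 normalized counts beside p53KO and 43.9 ± 3.13 beside WT (SD, n = 3). Klf2, Klf5, Dppa3, Tdh and Lifr, which encodes a LIF receptor subunit, fell, with changes of −21.7% to −10.6%. Adjusted p values of these 10 were 0.0001 to 0.048 with the block and 0.079 to 0.83 without it.

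Of the members that did not pass the test, Tbx3 (−0.32, adjusted p = 0.053), Klf4 (−0.24, adjusted p = 0.20) and Dppa2 (−0.09, adjusted p = 0.068) had negative values, and Fgf4, a ligand that drives exit from the naive state, had 6935 ± 89.2 and 6900 ± 241 normalized counts. None of the 8 core pluripotency genes passed the test in edgeR, where 4 had an unadjusted p below 0.05, and DESeq2 called 0. Their values ranged from −0.08 to 0.07 on the log2 scale. Pou5f1 differed by 0.02 ± 0.03 (SE) and Sox2 by −0.07 ± 0.03 (SE).

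**Figure D2:**
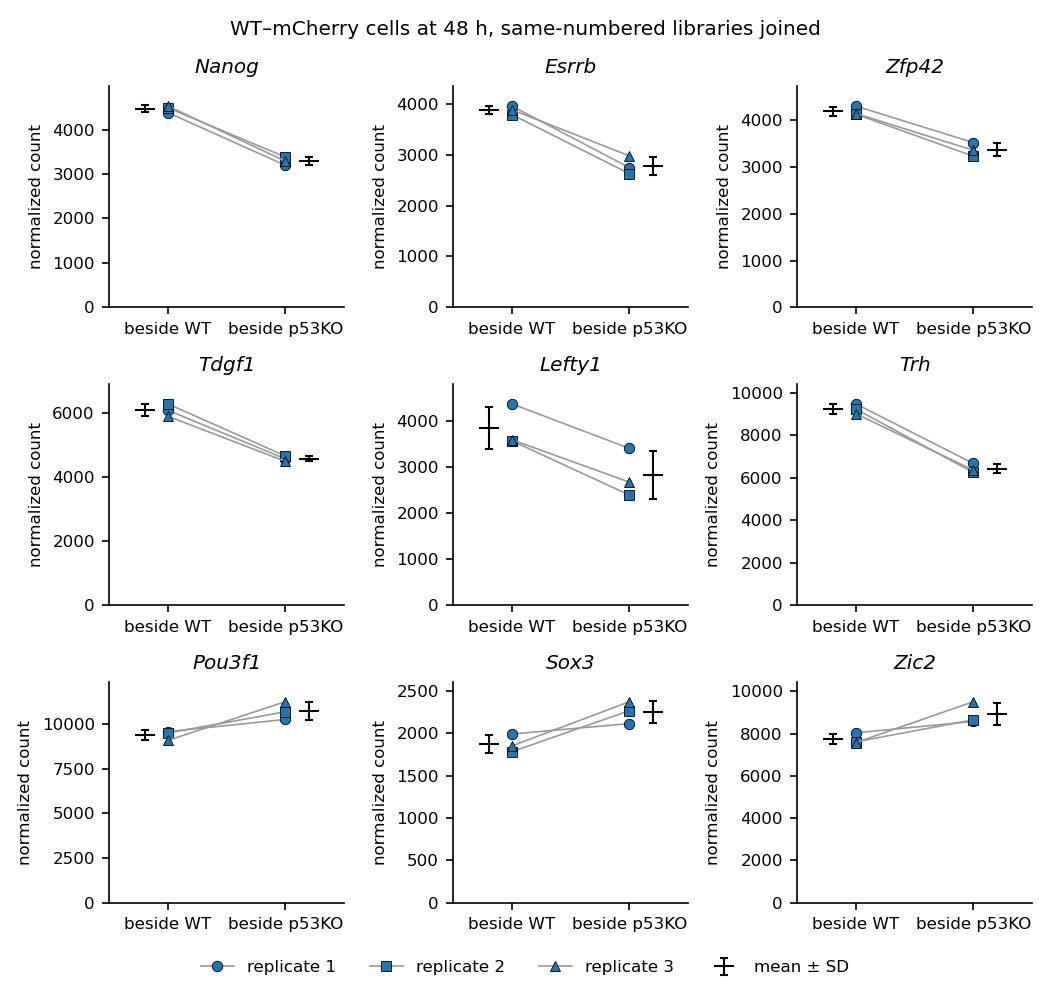
Normalized counts of 9 genes in the 6 WT–mCherry libraries of 48 h, with same-numbered libraries joined and the mean ± SD of each group beside them (y axes start at 0). Nanog, Esrrb, Zfp42, Tdgf1, Lefty1 and Trh were lower beside p53KO in every pair, and Pou3f1, Sox3 and Zic2 were higher in every pair.

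Of 19 tested genes of the formative and primed list 7 rose, against 1.25% of all genes, and 2 fell. Those that rose were Zic2, Zic5, Sox3, Pou3f1, Lef1, Sall2 and Etv4, by 7.21% to 20.2%. Pou3f1, a POU factor of the early epiblast, had 10262, 10692 and 11257 normalized counts beside p53KO and 9582, 9507 and 9092 beside WT (0.19 ± 0.04 SE, adjusted p = 0.005, and 0.58 without the block). Sox3, a SoxB1 factor of primed and neural cells, had 2116, 2268 and 2374 against 1993, 1784 and 1853 (0.27 ± 0.05 SE, adjusted p = 0.0039, and 0.41 without the block). The zinc finger gene Zic2 had 8571, 8649 and 9504 against 8033, 7607 and 7576 (0.20 ± 0.04 SE, adjusted p = 0.00082, and 0.36 without the block). These 3 genes were separated between the groups.

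Fewer of these rises were called when libraries were left out, and the cause was not tested. None was called without the block. Leaving out replicate 3 of every group, or replicate 2 beside WT, left 1 call, leaving out replicate 3 beside WT left 3, and leaving out replicate 1 of every group, or replicate 1 or 3 beside p53KO, left 4. Dnmt3l, a cofactor of DNA methylation (−0.28 ± 0.03 SE, adjusted p = 7.7e-07), was among those that fell. The primed markers Fgf5 (4200 ± 145 and 4008 ± 193), Otx2 (6264 ± 165 and 6191 ± 478) and Dnmt3b (197901 ± 4638 and 186442 ± 4347) did not pass the test. The median of the list was 0.03 on the log2 scale. None of the 13 tested primitive streak genes passed it in edgeR, 0 had an unadjusted p below 0.05, and DESeq2 called 0.

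**Figure D3:**
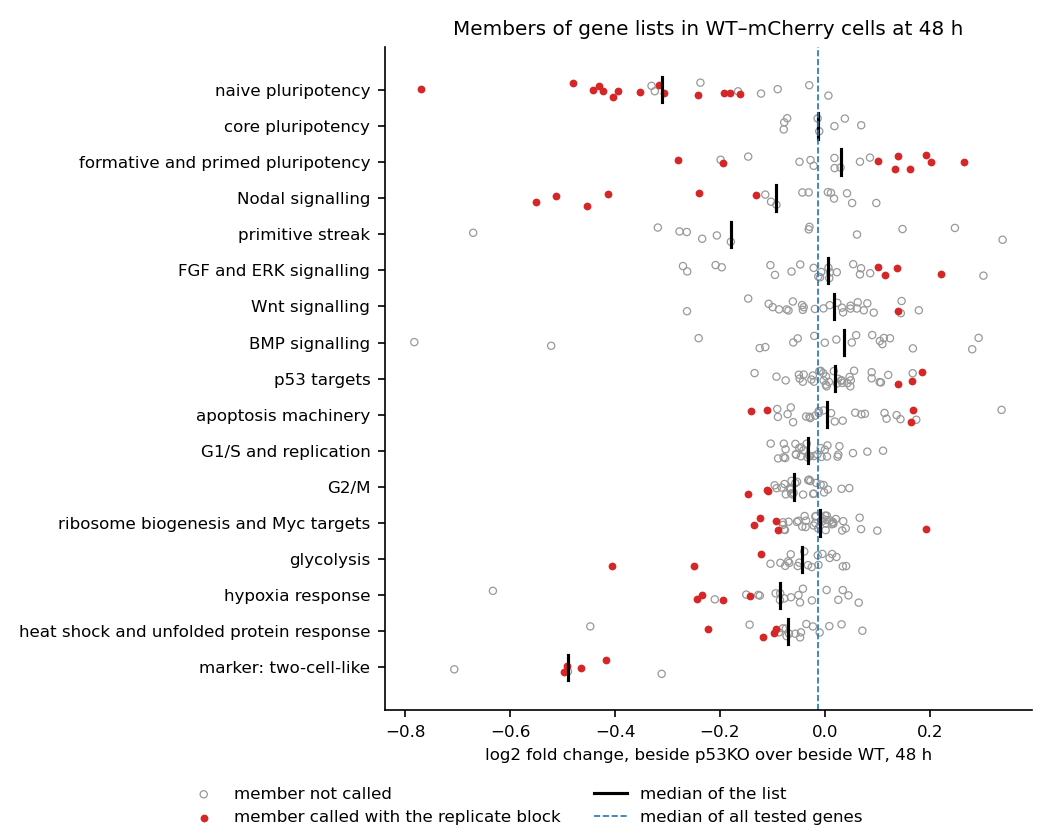
Log2 fold changes of the members of 17 lists in WT–mCherry cells at 48 h (x axis), beside p53KO over beside WT, with called members filled in red, list medians as black bars and the median of all tested genes, −0.01, as a dashed line. The naive pluripotency list, with a median of −0.31, and the markers of cells resembling the 2-cell stage, with a median of −0.49, lie to the left.

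In the Nodal pathway 6 of 17 tested genes fell, against 3.69% of all genes, and 0 rose. Among them were the ligand gene Nodal, its relative Gdf3, the co-receptor gene Tdgf1 and the inhibitor genes Lefty1 and Lefty2. The receptor genes and the effector genes Smad2, Smad3, Smad4 and Foxh1 did not pass the test. The median of the list was −0.09. Without the block edgeR called Tdgf1 alone and DESeq2 3 members, and the fits that left out a replicate or a library had 4 or 5 calls.

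Tdgf1, which is also called Cripto, had 4579, 4668 and 4501 normalized counts beside p53KO and 6100, 6299 and 5911 beside WT, and fell by 24.9% (−0.41 ± 0.03 SE, adjusted p = 1.7e-10, and 0.00041 without the block). Lefty1 had 3407, 2391 and 2673 against 4373, 3570 and 3593 (−0.45 ± 0.04 SE, adjusted p = 7.4e-08). Its replicates varied together, replicate 1 being the highest in both groups, and without the block its adjusted p was 0.41. The neighbouring gene Lefty2 on chromosome 1 had 731, 582 and 646 against 970, 797 and 1032 (−0.51 ± 0.06 SE, adjusted p = 5.0e-06, and 0.071 without the block). The 2 Lefty genes are close in sequence, so that uniquely mapped reads may count them unequally.

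Nodal itself fell less, with 2076, 1938 and 2153 normalized counts against 2303, 2438 and 2526 (−0.24 ± 0.05 SE, adjusted p = 0.0025, and 0.42 without the block). Gdf3 fell by 8.75% (adjusted p = 0.020, and 0.69 without the block). All 5 of these genes were separated between the groups. Nodal and Gdf3 are named here after their values were seen.

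The p53KO–emiRFP neighbours, compared in the same fit with WT–emiRFP cells, had lower Nodal (−1.32 ± 0.05 SE), Lefty1 (−1.14 ± 0.04 SE) and Lefty2 (−0.66 ± 0.06 SE), with adjusted p of at most 1.7e-10. In that contrast, where 18.8% of genes were lower and 22.3% higher (41.1% in all), Nanog (−0.44 ± 0.03 SE) and Dppa5a (−0.10 ± 0.03 SE) were lower in the p53KO cells, Esrrb differed by −0.04 ± 0.05 (SE) and Zfp42 was higher by 0.41 ± 0.04 (SE). Of the 14 naive genes lower in WT–mCherry cells, 2 were lower and 9 higher in that contrast.

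Trh, which encodes the precursor of thyrotropin-releasing hormone, had the smallest p of all genes. It had 6679, 6255 and 6362 normalized counts beside p53KO and 9490, 9243 and 9024 beside WT (−0.53 ± 0.03 SE, adjusted p = 2.4e-13, and 0.00041 without the block). Cnn2, an actin-binding calponin, had 1083, 1095 and 1277 against 1666, 1597 and 1745 (−0.54 ± 0.05 SE, adjusted p = 4.9e-08, and 0.0047 without the block). Slc2a3, the glucose transporter Glut3, had 6772, 7159 and 7908 against 9124, 9799 and 9954 (−0.40 ± 0.03 SE, adjusted p = 6.1e-10, and 0.0075 without the block). The changes of the 3 genes were −31.2% to −24.5%, without overlap of the groups.

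The others called in both fits were Mov10, an RNA helicase, Manba, a lysosomal mannosidase, Gpa33, a surface glycoprotein, AU018091, Dmtn, an actin-bundling protein, Ephx2, an epoxide hydrolase, and Txnip, an inhibitor of thioredoxin and of glucose uptake. Their changes were −25.2% to −21.2%, with adjusted p without the block of 0.0075 to 0.043.

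Of the 10 largest falls (mean log2 CPM at least 1 over the 12 libraries of 48 h), Cnn2, Trh and Lefty2 are given above. H2bc14, a transcript of the emiRFP clone, is among them only because the emiRFP libraries raise its mean log2 CPM. It had 25.0 normalized counts beside p53KO and 48.8 beside WT. Others were Eprn (−0.79 ± 0.10 SE), a noncoding transcript, Ngfr (−0.68 ± 0.13 SE), a neurotrophin receptor, Phf11d (−0.60 ± 0.12 SE) and Zscan4-ps3 (−0.55 ± 0.07 SE). The means of these 4 were 105 to 379 normalized counts beside p53KO and 168 to 556 beside WT, and their adjusted p without the block were 0.064 to 0.46.

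The 10 largest rises were Best4-ps, Mir5125, Osgin1, Dancr, Ebf1, Prr36, Mkrn3, Mtcp1, Lypd6b and Abcc8, by 29.7% to 46.6%. Their means beside WT were 98.5 to 567 normalized counts. Dancr, a noncoding transcript that hosts a small nucleolar RNA, had the highest level, with 771, 844 and 741 against 642, 600 and 460 (0.48 ± 0.08 SE, adjusted p = 0.00066). None passed without the block (adjusted p 0.38 to 0.87), and leaving out replicate 1, 2 or 3 of every group ended the calls of 9 of the 10 at least once, with Dancr as the exception.

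Of 38 p53 target genes 3 rose, against 1.25% of all genes, and 0 fell, and DESeq2 with the block called 1. The protein p53 was not measured here, and the Trp53 transcript is given above. For the targets the median was 0.02 on the log2 scale, with a range of −0.13 to 0.19. Phlda3, an inhibitor of Akt (0.19 ± 0.04 SE, adjusted p = 0.0092), Pidd1, an activator of caspase 2 (0.17 ± 0.03 SE, adjusted p = 0.0025), and Plk2, a polo-like kinase (0.14 ± 0.04 SE, adjusted p = 0.046), were those that rose. None was called without the block (adjusted p 0.74 to 0.83). Without replicate 2 beside WT no p53 target was called, and without replicate 3 beside either neighbour 1 was. Cdkn1a, the arrest gene p21, had 2108, 2070 and 2398 normalized counts beside p53KO and 2189, 2202 and 2135 beside WT (0.01 ± 0.05 SE). Mdm2 (10202 ± 927 and 10209 ± 587) and Ccng1 (21481 ± 1824 and 21433 ± 1416) also overlapped.

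Of 28 apoptosis genes, to be read against 1.25% of all genes higher and 3.69% lower, Casp2 (0.17 ± 0.04 SE) and the Bcl2 family killer Bcl2l11 (0.16 ± 0.03 SE) rose, and the survival gene Mcl1 (−0.14 ± 0.03 SE) and Cycs, the gene of cytochrome c (−0.11 ± 0.03 SE), fell, each with adjusted p of at most 0.035, and of at least 0.41 without the block. Without replicate 3 of every group no gene of the list was higher, and 1 gene was lower in 8 of the 9 fits without a replicate or library. None of the 30 genes of G1/S and replication passed the test in edgeR (7 at an unadjusted p below 0.05), and DESeq2 called 0. Of the 30 G2/M genes Hmmr, Bub1 and Kif11 fell (−9.67% to −7.25%), against 3.69% of all genes, and of 40 ribosome biogenesis and Myc target genes Mycn rose by 14.4% and 4 fell (−8.95% to −6.05%). All of these had adjusted p of at least 0.45 without the block. No G2/M gene was called when replicate 2 or 3 of every group, replicate 2 beside p53KO or replicate 2 or 3 beside WT was left out, and Kif11, which was higher in 1 of the 3 pairs, did not pass with TMM. Without replicate 3 of every group no ribosome biogenesis or Myc target gene was called, and DESeq2 called 8 lower.

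Of 25 FGF and ERK genes 4 rose, against 1.25% of all genes, the feedback inhibitors Spry4 (0.22 ± 0.04 SE), Spred3 (0.14 ± 0.03 SE) and Dusp6 (0.11 ± 0.03 SE) and the target Etv4 (0.10 ± 0.03 SE), and 0 fell. Leaving out libraries left 1 to 3 of these calls, and none was made without the block (adjusted p 0.62 to 0.89). Of 28 Wnt genes Lef1 rose (0.14 ± 0.03 SE, adjusted p = 0.0091, and 0.75 without the block), but no Wnt gene was called without replicate 3 of every group, replicate 1 beside p53KO or replicate 2 or 3 beside WT. Of 20 BMP genes none passed in edgeR (5 at an unadjusted p below 0.05), and DESeq2 called 0.

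In metabolism 3 of 22 glycolysis genes fell, against 3.69% of all genes, Slc2a3, the phosphofructokinase Pfkp (−0.25 ± 0.04 SE, adjusted p = 7.6e-05) and Pgk1 (−0.12 ± 0.03 SE, adjusted p = 0.011), and 4 of 23 hypoxia genes fell, Pdk1, which restrains pyruvate oxidation (−0.19 ± 0.03 SE, adjusted p = 7.1e-05), Kdm3a, P4ha1 and Bhlhe40. Of these 7 genes, edgeR called Slc2a3 without the block, where DESeq2 called 2 glycolysis genes and 1 hypoxia gene, and without replicate 2 beside WT 1 hypoxia gene was. Slc2a3 lies near Gdf3, Dppa3 and Nanog, all between bases 122605403 and 122801640 of chromosome 6. Whether their falls are linked was not tested. None of 30 genes of cholesterol and fatty acid synthesis and none of 12 mitochondrial genes passed in edgeR (10 and 1 at an unadjusted p below 0.05), and DESeq2 called 1 and 0. In 25 genes of the integrated stress response 1 rose, against 1.25% of all genes, and 2 fell, against 3.69%. Ddit3, the factor Chop, rose (843, 968 and 1070 against 661, 798 and 848, adjusted p = 0.00026, and 0.65 without the block). Asns (−9.43%) and Cth (−10.2%) fell, with adjusted p of 0.74 and 0.83 without the block. Neither of these 2 was called without replicate 2 of every group or of either neighbour. Of 20 chaperone genes Hspb1, Hsp90aa1, Hspa8 and Dnaja1 fell (−14.3% to −6.26%), against 3.69% of all genes. None was called without the block, by edgeR or by DESeq2, and leaving out replicate 1, 2 or 3 of every group left 1 call each. Without replicate 2 beside p53KO none of these chaperones was called.

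The remaining lists are given by counts, to be read against 3.69% of all genes lower and 1.25% higher. Of 16 immediate early genes, which dissociation can induce, Ier5 rose and Fos fell, the latter with 23.8, 46.3 and 41.6 normalized counts against 81.0, 167 and 30.5, so that the groups overlapped. DESeq2 with the block called neither, no gene of the list was higher in any of the 9 fits without a replicate or library, and 0 to 3 were lower in them. Of 18 YAP and TEAD genes Ccn2 and Tead1 fell, of 16 MHC and antiviral genes Stat2 and Ddx58, and of 27 adhesion genes Itgb1, with changes of −15.8% to −7.75%. Of 23 methylation and imprinted genes Nnat, Meg3 and Peg3 rose by 7.82% to 22.9%, and Dnmt3l and Peg10 (−0.27 ± 0.03 SE, adjusted p = 3.9e-06) fell. None of these was called without the block by edgeR, and DESeq2 without the block called the 2 falls of the methylation and imprinted list. In the fits that left out a replicate or a library 0 or 1 of the MHC and adhesion calls were made, 0 to 2 of the YAP calls and 0 to 2 rises of imprinted genes, while the 2 falls of that list were called in each, and with TMM Ddx58 did not pass.

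Markers of other cell types were measured in the same libraries. Of 7 tested markers of cells resembling the 2-cell stage, which appear sporadically in mES cultures, 4 fell, against 3.69% of all genes, Zscan4c, Zscan4d, Zscan4f and Usp17lc, and all 7 had negative values. Zscan4c had 602, 578 and 447 normalized counts beside p53KO and 784, 762 and 628 beside WT (−0.42 ± 0.07 SE, adjusted p = 0.00023, and 0.45 without the block). The summed level of the list was 1362 to 1993 beside p53KO and 1911 to 2656 beside WT, and Tcstv1 was at 0 in all 6 libraries. All 9 tested genes and pseudogenes of the Zscan4 family were lower, with log2 fold changes of −0.55 to −0.36. For the 7 markers DESeq2 with the block called 1, the fit without replicate 2 beside WT 2, and TMM 3, without Usp17lc. This family was counted after the values were seen, and its copies are nearly identical, so the 9 are not independent and their split is uncertain. Their part in the falls of naive genes was not tested.

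Of 6 tested primordial germ cell markers Prdm14 and Dppa3, which are also in the naive list, and Tfap2c fell, against 3.69% of all genes. With TMM or with DESeq2 1 was called, and without replicate 2 of every group, replicate 2 beside p53KO or any library beside WT 0 were. Their summed level, with the rest of the list, was 2415 to 2927 beside p53KO and 2774 to 3228 beside WT. No primitive endoderm, trophoblast or mesoderm marker passed the test in edgeR (1, 0 and 0 at an unadjusted p below 0.05), and DESeq2 called 0 in each, with summed levels of 978 to 1730, 469 to 512 and 247 to 296 beside p53KO and 876 to 1575, 423 to 470 and 262 to 310 beside WT. Of 5 neural markers Neurod1 rose (0.27 ± 0.08 SE) and Pax6 fell (−0.32 ± 0.09 SE), neither of them without the block or in any fit that left out a replicate or library, and the sum was 2173 to 2393 and 2225 to 2360. Markers at under 10 normalized counts on average included Afp, Elf5, Gata3, Tpbpa, Nanos3, Mesp1, Msgn1, Hand2, Neurog2 and Hes5. Epiblast markers summed to 339316 to 352219 and 322783 to 335979, with Pou3f1 higher and Tdgf1 lower.

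Whether the genes that differed by neighbour are genes that move in WT gastruloids was examined in WT–emiRFP cells. Their libraries are not on either side of the contrast above, but those of 48 h share its fit and are also in the fit of the course. From 0 h to 72 h 34.7% of 18181 genes fell and 33.4% rose in these cells, 68.1% in all. Of the 651 genes lower beside p53KO 422 fell (64.8%) and 105 rose (16.1%), with a median of −0.43 on the log2 scale. Of the 220 tested genes higher beside p53KO 128 rose (58.2%) and 40 fell (18.2%), with a median of 0.41. All 14 naive genes that were lower beside p53KO fell in that course, and 6 of the 7 formative genes that were higher rose in it. The naive and formative lists hold genes known to fall and rise as mES cells leave the naive state. The directions of these genes were therefore given in advance. In the Nodal list the called genes moved both ways, with Tdgf1, Lefty2 and Gdf3 falling and Lefty1 rising.

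The course was not even. In WT–mCherry cells Nanog had 41047 normalized counts in mES cells, 4470 beside WT cells at 48 h and 12227 at 72 h, and Esrrb had 46602, 3878 and 7449. Pou3f1 had 492, 9394 and 822. The level of Nanog at 48 h was thus below that of both other times, beside either neighbour, and that of Pou3f1 above both. Against the change from mES cells the difference by neighbour was small.

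**Figure D4:**
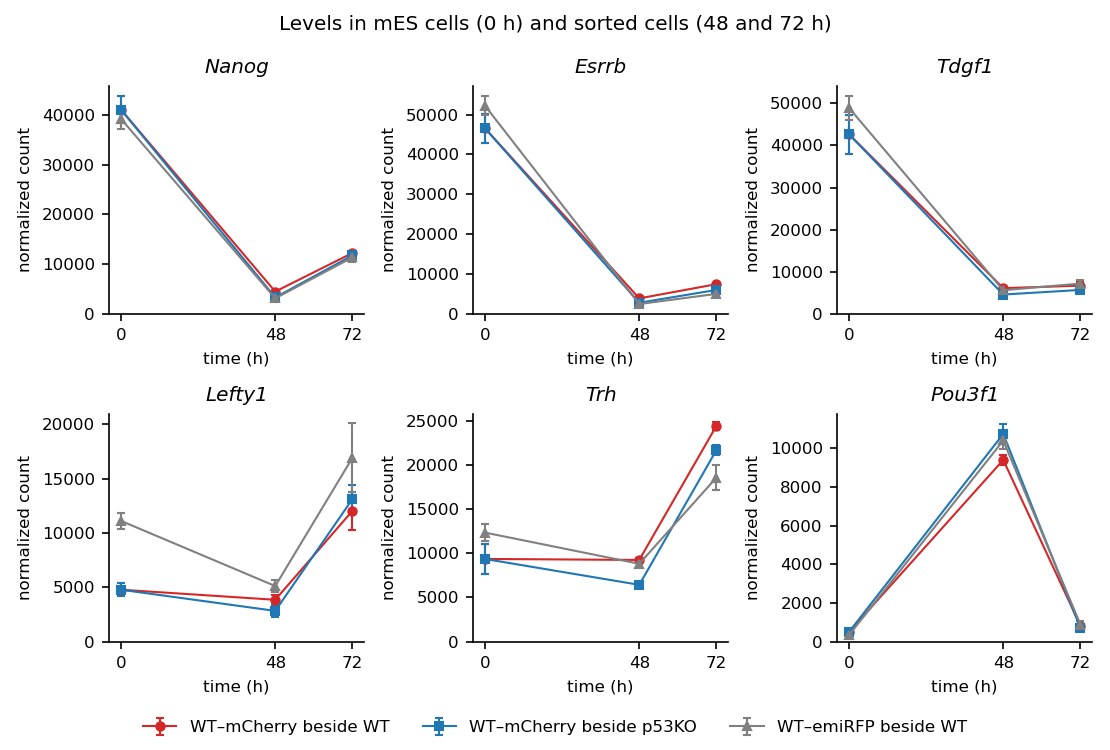
Normalized counts (mean ± SD of 3 libraries) of 6 genes in mES cells (0 h) and in sorted cells at 48 h and 72 h, for WT–mCherry cells beside WT and beside p53KO, which share the WT–mCherry mES libraries at 0 h, and for WT–emiRFP cells. Nanog is at its lowest and Pou3f1 at its highest at 48 h, and Trh beside p53KO lies below Trh beside WT at 48 h and 72 h.

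The same comparison was made at 72 h, in other libraries, after the CHIR99021 pulse. The calls at 72 h come from the fit over 24 libraries of both times and those at 48 h from the fit over 12 libraries of 48 h. In the fit over 24 libraries 85 genes were lower and 16 higher at 48 h, with 8 of the naive list among the lower, so the counts of the 2 times are not on 1 scale. At 72 h 460 of 18561 genes were lower and 572 higher beside p53KO (2.48% and 3.08%, together 5.56%). Of the 651 genes lower at 48 h 142 were lower at 72 h (21.8% of them, and 30.9% of the 460) and 4 were higher. Of the 221 higher at 48 h 23 were higher at 72 h (10.4%, and 4.02% of the 572). Of the naive list 18 of 22 genes were lower at 72 h with a median of −0.35, and they included 13 of the 14 lower at 48 h. Nanog was the exception.

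The effects of the neighbour at 48 h and 72 h differed in 123 genes by the interaction test (0.663%), 91 of them lower at 48 h relative to 72 h (0.49%) and 32 higher (0.172%). Without the block edgeR called 0 genes, with 1101 at an unadjusted p below 0.05, and DESeq2 with the block called 256. With the block there were 21 calls without replicate 1, 64 without replicate 3 and 0 without replicate 2, so none of the differences named below was called in each of these fits. Nanog, at −0.44 ± 0.03 at 48 h and −0.06 ± 0.04 at 72 h (SE), differed between the times (difference −0.38 ± 0.05 SE, adjusted p = 0.002, and 0.081 without the block). Lefty1 (−0.45 at 48 h and 0.13 at 72 h, adjusted p = 0.002) and Lefty2 (−0.51 and −0.02, adjusted p = 0.015) also differed, with adjusted p of 0.65 and 0.26 without the block. For Tdgf1 (−0.41 and −0.23) and Nodal (−0.24 and 0.08) the difference did not pass (adjusted p = 0.066 and 0.054).

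The differences of Esrrb (−0.48 and −0.31), Zfp42 (−0.32 and −0.47) and Dppa5a (−0.31 and −0.36) did not pass either, with differences of −0.16 ± 0.08, 0.16 ± 0.07 and 0.05 ± 0.06 (SE). Among the 13 genes called in both fits 10 were lower at 72 h too, and Nanog, Trh, Ephx2 and Txnip had effects that differed between the times. Cnn2 (−0.54 and −0.64), Mov10 (−0.35 and −0.33) and Manba (−0.40 and −0.38) had close values.

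**Figure D5:**
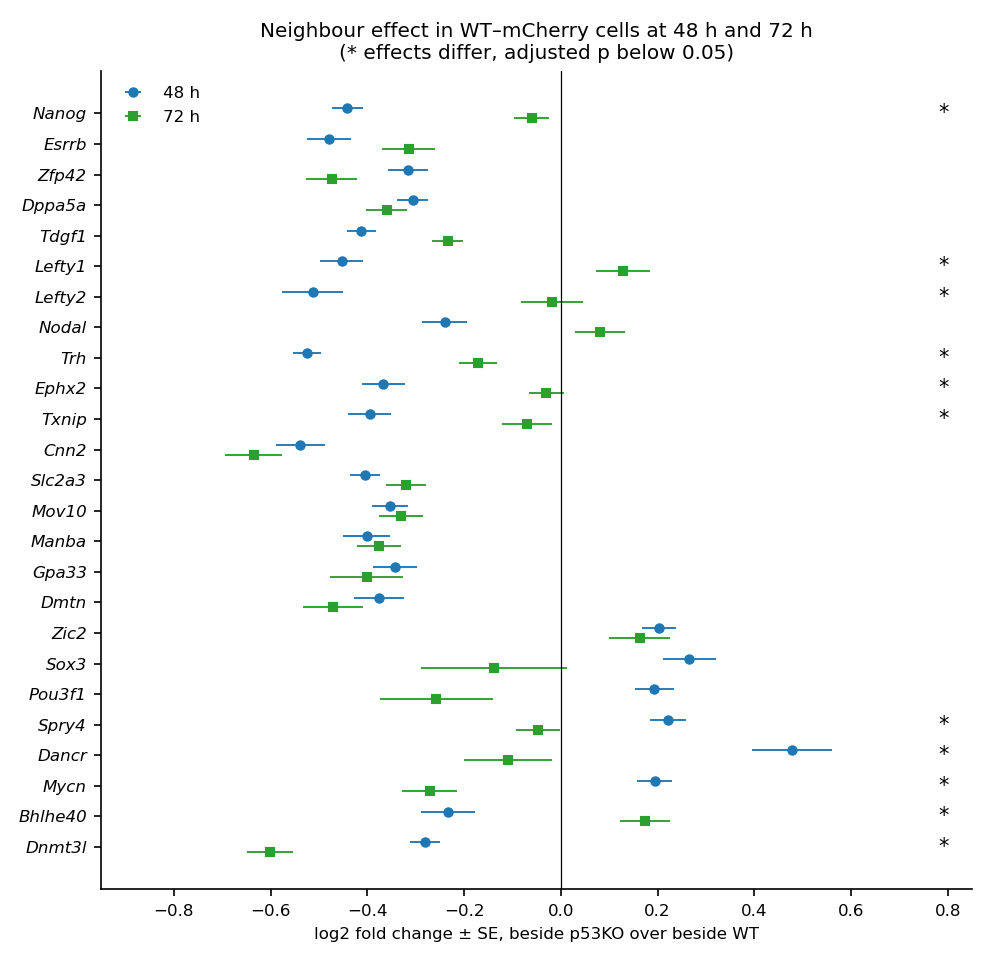
Log2 fold change ± SE (x axis) of 25 named genes in WT–mCherry cells beside p53KO over beside WT at 48 h (circles) and 72 h (squares), with stars where the 2 effects differ with the replicate block. Nanog, Lefty1 and Lefty2 are well below 0 at 48 h and near 0 at 72 h, and Cnn2, Mov10 and Manba are below 0 at both times.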

How the data were processed

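The authors sorted the cells of each clone by FACS, made stranded poly(A) libraries, trimmed reads (Trim Galore 0.6.7 in the submitters' processing notes), aligned them to GRCm38.p6 with STAR 2.7.11b and deposited raw counts of uniquely mapped reads for 55367 gene symbols, in 69 columns that were all used. The table held 0 lines without a gene name or for totals. The members of the comparison and the gene lists were chosen with earlier results of these data known.

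Counts were divided by median-of-ratios size factors over all 69 libraries to give normalized counts, and tested on raw counts with these factors in edgeR 4.0.16 (R 4.3.3) by the quasi-likelihood test, after filterByExpr by group, with Benjamini-Hochberg adjustment over all tested genes and a threshold of 0.05. The 12 libraries of 48 h shared a fit that had the replicate number as its block (6 residual degrees of freedom), the 24 libraries of 48 h and 72 h the interaction fit with replicates within time as a block, and the 9 WT–emiRFP libraries of 0, 48 and 72 h the course. Standard errors are the log2 fold change divided by the square root of F.

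The pairing comes from the labels' replicate numbers and from the methods, by which replicates are separate experiments. It was checked over 14078 genes (mean count of 50 or more). Deviations from group means of same-numbered libraries correlated at 0.24, 0.24 and 0.39, and those of other pairs at −0.24 to 0.03. Deviations cancel each other within a group, so the values of other pairs follow in part from the first and are no separate check. At most 6.03% of genes with a count had the same count in 2 replicates.

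Named are genes called with and without the block, the 10 largest rises and falls by fold change among genes of mean log2 CPM 1 or more, the same direction in 3 pairs and a gene name other than a model or clone name, up to 4 called members per list and direction, and Trp53, genes high in the emiRFP clone and epiblast markers as checks. Some genes that the rule names are not reported here. Others are said to be named after their values were seen. The same holds for Tbx3, Klf4, Dppa2, Fgf4, Sox2, Sall2, Cdkn1a, Mdm2 and Ccng1. Lists are given by counts and medians, without a test of the list. The authors' annotation is given as Gencode v.25, and positions here are from Gencode vM21 on GRCm38. Steps were tested on simulated counts. Alternatives were no block, TMM, no filter, fewer or more libraries in the fit, DESeq2 1.42.0, a minimum fold change and each replicate or library left out. Sequencing errors and counting errors are covered only as far as replicates vary.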

Additional observations from a re-analysis of the deposited data

Results flagged for a closer look

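The following genes had an effect of the neighbour that differed between 48 h and 72 h by the interaction test, given as the log2 fold change at 48 h minus that at 72 h. More negative at 48 h were Lefty1 (−0.58), Lefty2 (−0.49), Bhlhe40 (−0.41), Nanog (−0.38), Trh (−0.35), Ephx2 (−0.34) and Txnip (−0.33). More positive at 48 h were Dancr (0.59), Fgf4 (0.48), Mycn (0.46), Sox2 (0.34), Gdf3 (0.33), Dnmt3l (0.32), Spry4 (0.27) and Bcl2l11 (0.24). Fgf4 and Sox2 did not pass the test at 48 h and were lower beside p53KO at 72 h (−0.48 and −0.42). Mycn was higher beside p53KO at 48 h (0.19) and lower at 72 h (−0.27). Dnmt3l and Gdf3 were lower at both times, and by more at 72 h (−0.60 and −0.46). None of these differences was called without the block, where the smallest adjusted p among them was 0.081 (Nanog and Mycn). Groups of 3 libraries were not examined for outlying samples.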

How the results depend on the processing

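The replicate block decides how many genes are called at 48 h. There were 872 calls with it and 13 without it, with 1068 genes at an unadjusted p below 0.05, and DESeq2 made 689 and 40. Asking for an absolute log2 change of 0.5 or more left 38, a fit shared with the libraries of 72 h, chosen after seeing the data, gave 101, and fits without a replicate or library gave 202 to 471. No filter gave 946 and the 6 compared libraries alone 1298. TMM gave 723 calls, of which 38.5% were higher against 25.3%, and shifted the median of all genes from −0.01 to −0.0019. No call of the 105 named genes turned its direction under any of these. Of them 13 kept their call without the block, 93 with TMM and 36 in the fit shared with 72 h.

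The interaction of 48 h and 72 h gave 123 calls with the block and 0 without it, 365 without the filter, 201 with 12 libraries, 256 with DESeq2, and 0 to 64 without a replicate, with 0 without replicate 2. The course of WT–emiRFP cells gave 10421 to 13043 calls against 12387, and the 422 lower genes that fell in it became 390 to 438. Signs of values near 0 turned when a library was left out, with ranges of −0.0115 to 0.0333 for Trp53, −0.0356 to 0.0529 for Otx2, −0.0457 to 0.0277 for Epcam, −0.0209 to 0.0290 for Cdh1, −0.0235 to 0.0447 for Fgf4, −0.0768 to 0.0587 for Cdkn1a, −0.0413 to 0.0325 for Mdm2 (0.00863 with TMM) and −0.0111 to 0.0233 for Ccng1, and in the interaction −0.0519 to 0.0190 for Mov10, −0.0768 to 0.18 for Gpa33 and −0.0122 to 0.0881 for Dppa5a. The calls of 92 of the 105 named genes, large changes among them, rest on the block, and the cause of each lost call was not tested.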
